A study of Homo sapiens with 10 samples.

Results

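The 28 genes described here belong to cholesterol and fatty acid synthesis and were taken by symbol from the 23243 genes that carry the same name in all 4 gene expression tables. They comprise 16 sterol enzymes from ACAT2 to DHCR7, 4 genes of sterol regulation and transport (INSIG1, SREBF1, SREBF2 and STARD4) and 8 genes of fatty acid and glycerolipid synthesis (ACLY, ACACA, FASN, ELOVL6, SCD, FADS1, FADS2 and LPIN1). All 28 were present in every table. The rule that names them uses no measured value.

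RNA-seq was used to ask which genes respond to PcTF, a fusion of the polycomb chromodomain of CBX8 (which binds the silencing mark H3K27me3) with mCherry and the activator VP64. The established lines U-2 OS (from an osteosarcoma), SK-N-SH (from a neuroblastoma) and K562 (from a leukaemia) each gave 1 library after transfection with 2 µg of PcTF plasmid and another from mock-transfected cells, treated with the reagents but no DNA. Collection was at up to 96 h for both adherent lines and up to 48 h for K562, which grows in suspension. A further table set the control line U2OS-dTF, whose fusion lacks the chromodomain, against U2OS-PcTF, both isogenic U-2 OS lines with an integrated transgene under TetR control, kept for 96 h in 1 µg/mL doxycycline.

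Every culture was grown with 10% tetracycline-free fetal bovine serum, which carries lipoprotein cholesterol, in McCoy's 5A (U-2 OS), EMEM (SK-N-SH) or IMDM (K562). The mock-transfected cells saw no doxycycline and no plasmid. Plasmid expression was constitutive in the 3 unmodified lines because they lack TetR, and only part of a transfected culture took up the plasmid, so a larger response in fewer cells and a smaller response in more cells cannot be told apart in these bulk libraries. The U2OS-PcTF value is a pooled column, the authors' mean of 3 libraries, 2 of the stable line and the PcTF-transfected U-2 OS library. A mean of the 2 stable libraries was therefore derived by subtraction and is named as derived wherever it appears. With 1 library or 1 pooled column in each group there is no replicate error, no test was made, and "higher" and "lower" describe these libraries only.

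Cholesterol is built from acetyl-CoA through mevalonate, isoprenoid diphosphates, squalene and lanosterol, and fatty acids are built from cytosolic acetyl-CoA through malonyl-CoA. Both branches answer to the sterol regulatory element-binding proteins, membrane-bound transcription factors that INSIG proteins hold in the endoplasmic reticulum when sterol is plentiful and that are carried to the Golgi and cleaved when it is scarce. SREBP-2 (SREBF2) is known mainly for the sterol genes and SREBP-1 (SREBF1) mainly for the fatty acid genes, and both commonly act beside the CCAAT-binding factor NF-Y. Proliferating cancer cells in culture make both kinds of lipid and also take sterol from serum.

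Levels are in FPKM (fragments per kilobase of transcript, scaled to library depth). Pairs of values joined by "then" give mock before PcTF-transfected cells or, for the stable lines, U2OS-dTF before the pooled U2OS-PcTF column. Differences are log2 ratios of FPKM plus 0.1, and a gene entered a count or median if it reached 1 FPKM in either group. The call is a 2-fold difference. Depth, recovered from the step that 1 read makes in low FPKM values, was 4260000 to 7370000 reads per library. The intervals given for single genes are exact 95% binomial intervals of the read ratio, cover counting error only, and had a median half-width on the log2 scale of 0.32 for U-2 OS, 0.33 for SK-N-SH and 0.19 for K562. Erythroid markers reached 1 FPKM in 6 of 6 cases in both K562 libraries and neuroblastoma markers in 5 of 6 cases in both SK-N-SH libraries. TH was at 0 FPKM in both SK-N-SH libraries. Mesenchymal markers reached 1 FPKM in 4 of 5 cases in every U-2 OS column but also in 3 or 4 of 5 cases in the other lines, so they do not set U-2 OS apart, and COL1A2 was listed at 0 in every U-2 OS column. None of 4 adipocyte and none of 4 hepatocyte markers reached 1 FPKM anywhere, with summed levels of 0 to 0.265 FPKM and 0 to 0.132 FPKM. CBX8, whose start is shared with the transgene, was 0.610 then 6.43 FPKM for U-2 OS, 0.287 then 8.85 FPKM for SK-N-SH, 1.59 then 14.3 FPKM for K562 and 1.29 then 5.43 FPKM for the stable lines.

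The 3 lines differed in how much of the pathway they expressed before any PcTF. Of the 28 genes, 20 had their highest mock level in K562, 3 in SK-N-SH and 5 in U-2 OS, across tables that were normalized separately. EBP, the sterol isomerase, measured 66.1 FPKM in mock K562 but 4.30 FPKM in mock U-2 OS and 2.83 FPKM in mock SK-N-SH. STARD4, a soluble carrier that moves sterol between membranes, ran the other way, with 2.38 FPKM in mock K562 beside 33.3 and 32.8 FPKM in the other two lines. FDFT1 (squalene synthase) and FADS1 (the delta-5 desaturase) were the top pair of members in all 3 mock libraries. FDFT1 was at 99.2, 45.9 and 337 FPKM and FADS1 at 122, 42.7 and 301 FPKM, in the order U-2 OS, SK-N-SH, K562. MVK, mevalonate kinase, was the lowest member in both adherent lines and was listed at 0 in mock U-2 OS. The median level of the sterol enzymes in mock cells, in the same order, was 5.03, 4.69 and 19.3 FPKM, below the median of the fatty acid genes, 17.5, 28.6 and 33.8 FPKM.

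**Figure D1:**
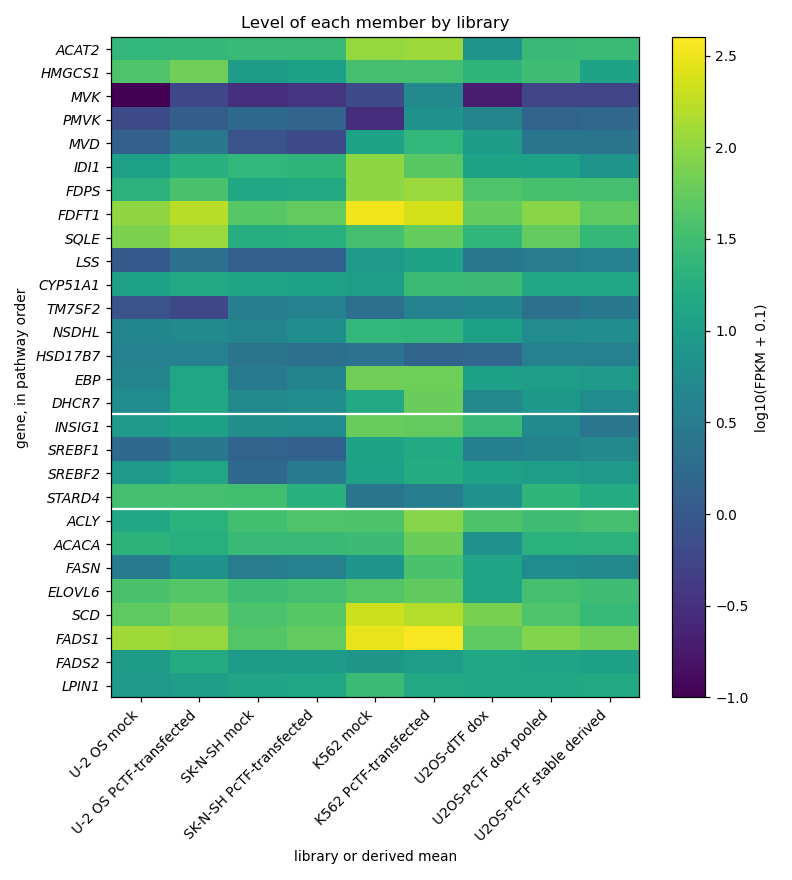
Level of each of the 28 genes (rows, in pathway order, with white lines between sterol enzymes, regulators and carrier, and fatty acid genes) in each column, as log10 of FPKM plus 0.1. The last column is the derived mean of the 2 stable U2OS-PcTF libraries. The brightest cells lie in the K562 columns, where FDFT1 is at 337 FPKM in mock cells, and MVK is dark in every column but PcTF-transfected K562, where it is at 4.93 FPKM.

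In U-2 OS the sterol enzymes were higher in PcTF-transfected than in mock cells along most of the pathway, and no member was 2-fold lower. The 5 genes at least 2-fold higher were EBP, DHCR7, MVD and LSS of the sterol branch and FASN (fatty acid synthase) of the other. That is 5 of the 26 that reached 1 FPKM, against 12.0% of all 12411 genes, and 0 of 26 were 2-fold lower against 5.59%. Of the 14 sterol enzymes that passed the filter 13 lay above 0, with a median log2 difference of 0.75 and quartiles of 0.41 and 0.97. The 8 fatty acid genes had a median of 0.34 with 6 above 0, and the median of all genes was 0.08. MVK and TM7SF2 were below 1 FPKM in both libraries and were not counted. With a pseudocount of 1 FPKM 2 members were past 2-fold, and with each gene centred on others of like GC content only EBP was.

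In SK-N-SH the members lay close together in both libraries. None of the 26 that passed the filter was 2-fold higher or lower, against 5.79% and 2.69% of all 11954 genes. MVD and MVK stayed below 1 FPKM. The median log2 difference was 0.08 for the sterol enzymes, 0.16 for the fatty acid genes and 0.10 for all genes. The farthest members were regulators and carriers: SREBF2 was 1.59 then 2.97 FPKM (log2 0.86, interval 0.37 to 1.48), and STARD4 was 32.8 then 19.4 FPKM (log2 -0.76, interval -0.92 to -0.60).

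In K562 single members lay far from 0 while the medians of both branches lay near that of all genes. PMVK, MVK, DHCR7 and CYP51A1 of the sterol branch and FASN, ACLY and ACACA of the fatty acid branch were at least 2-fold higher, and IDI1 was 2-fold lower. That is 7 of 28 higher against 28.6% of all 11553 genes, and 1 of 28 lower against 11.7%. The median log2 difference was 0.35 for the sterol enzymes, 0.32 for the fatty acid genes and 0.37 for all genes. Genes at 1 FPKM or more in both K562 libraries had a median of 0.28, and relative to that shift the counts were 5 higher and 3 lower. Centring on genes of like GC content gave 5 higher and 2 lower. The 6 erythroid markers, which are those of the line itself, had a summed level of 1740 then 7533 FPKM for K562, and their part in these differences was not tested.

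In the stable lines the members split in both directions. Against U2OS-dTF the pooled U2OS-PcTF column was 2-fold higher for 6 of 27 members (ACAT2, STARD4, ACACA, ELOVL6, HSD17B7 and SQLE) and 2-fold lower for 7 (INSIG1, MVD, PMVK, FASN, TM7SF2, CYP51A1 and NSDHL). All 13022 genes tested had 36.1% higher and 14.5% lower. The median log2 difference was -0.08 for the sterol enzymes, -0.01 for the fatty acid genes and 0.52 for all genes. The median shift of genes expressed in both columns was 0.31, and relative to it the counts were 4 higher and 8 lower. Upper quartile scaling gave 6 higher and 3 lower, and GC-decile centring 3 higher and 6 lower. MVK stayed below 1 FPKM in both columns. The derived mean of the 2 stable libraries gave 5 higher (37.0% of all genes) and 6 lower (13.5%), with a sterol median of -0.35. The sterol median was 0.12 with upper quartile scaling and 0.07 with no filter, and the fatty acid median 0.20 with upper quartile scaling and 0.01 with the derived mean, so the sign of neither held. Each of the 6 members 2-fold higher in the pooled column was 2-fold lower in U2OS-dTF than in mock U-2 OS. Each of the 7 lower members was 2-fold higher in U2OS-dTF than in mock U-2 OS, across separately normalized tables. Both comparisons hold the same U2OS-dTF library, on opposite sides. Members picked by the first therefore tend to lie the other way in the second, which is no separate evidence. The share of all genes that do so was not computed.

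**Figure D2:**
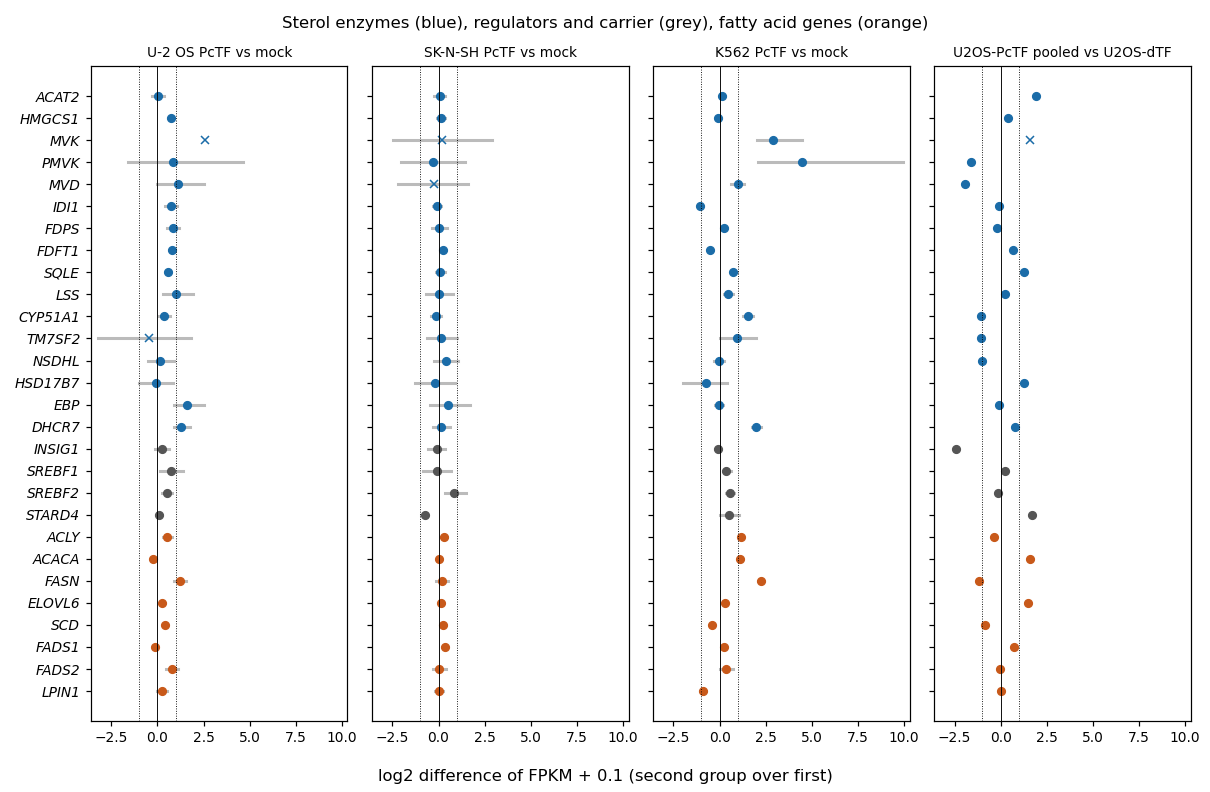
Log2 difference of FPKM plus 0.1 (horizontal axis) for each of the 28 genes in the 4 deposited comparisons, with sterol enzymes in blue, regulators and carrier in grey and fatty acid genes in orange. Grey bars are exact 95% counting intervals, absent for the pooled column and for MVK in U-2 OS where 1 group is at 0, crosses mark genes below 1 FPKM in both groups, and dotted lines mark 2-fold. In U-2 OS 13 of the 14 sterol enzymes that passed the filter lie to the right of 0, the SK-N-SH points lie near 0, and PMVK in K562 has the widest bar, 2.06 to 9.96.

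The promoters of 7 members are shown because both branches are known targets of factors that bind beside NF-Y. RefSeq promoter entries (GRCh38.p14, from 250 bases before to 50 after the start) were found for 24 of the 28 genes, and 23 could be placed on GRCh37 by an exact match. ACAT2, FDFT1, SQLE and FASN had no entry. The letters CCAAT occurred on either strand in 15 of 24 members (62.5%), in 10 of 13 sterol enzymes (76.9%) and in 2 of 7 fatty acid genes (28.6%), against 35.7% of all 27305 promoters. TCACNCCAC, a sterol regulatory element type, occurred in 1 of 24, SREBF2 itself, against 1.15% of all promoters, and CACGTG, an E-box, in 2 of 24 (8.33%) against 7.43%. No motif overlaps another in the stretches below. A match of letters is a description and not a bound site, and no match says only that these letters are absent from the window. The 4 sterol enzymes at least 2-fold higher in U-2 OS come first, then HMGCS1, INSIG1 and SREBF2. These were chosen after their values were seen. Each stretch was placed to hold a motif before the start, TCACNCCAC where present and otherwise the motif nearest the start. That each holds a motif was therefore fixed in advance. Each stretch is 100 bases read 5′ to 3′ on the gene's strand, with CCAAT (or ATTGG, its reverse complement), TCACNCCAC and CACGTG in capitals.
MVD: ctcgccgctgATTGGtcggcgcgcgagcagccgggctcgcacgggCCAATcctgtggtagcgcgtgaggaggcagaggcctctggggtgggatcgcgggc
LSS: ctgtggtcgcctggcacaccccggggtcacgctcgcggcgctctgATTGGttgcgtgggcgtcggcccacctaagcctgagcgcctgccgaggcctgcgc
EBP: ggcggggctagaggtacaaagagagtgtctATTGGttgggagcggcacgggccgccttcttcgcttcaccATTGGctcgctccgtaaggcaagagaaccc
DHCR7: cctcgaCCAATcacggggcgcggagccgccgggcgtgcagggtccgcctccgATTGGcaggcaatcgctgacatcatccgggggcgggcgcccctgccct
HMGCS1: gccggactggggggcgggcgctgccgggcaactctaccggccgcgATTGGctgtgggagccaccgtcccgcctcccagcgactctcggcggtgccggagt
INSIG1: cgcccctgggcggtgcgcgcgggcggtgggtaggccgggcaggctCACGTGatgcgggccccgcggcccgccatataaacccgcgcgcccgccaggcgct
SREBF2: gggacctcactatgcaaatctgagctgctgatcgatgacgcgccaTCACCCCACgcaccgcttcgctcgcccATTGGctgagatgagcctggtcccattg
On GRCh37 these stretches lie at chr16:88729530-88729629 (minus strand, MVD), chr21:47648784-47648883 (minus strand, LSS), chrX:48380096-48380195 (plus strand, EBP), chr11:71159440-71159539 (minus strand, DHCR7), chr5:43313560-43313659 (minus strand, HMGCS1), chr7:155089488-155089587 (plus strand, INSIG1) and chr22:42228931-42229030 (plus strand, SREBF2). The stretches of MVD, EBP and DHCR7 each hold a pair of CCAAT letters, LSS and HMGCS1 hold 1, SREBF2 holds CCAAT beside TCACNCCAC, and INSIG1 holds CACGTG. Matches outside the stretches, such as the CCAAT letters of INSIG1 at -170 from the start, are not shown.

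The genes of the early, mevalonate part of the pathway differed unevenly. ACAT2, the thiolase that joins acetyl-CoA units, was 24.3 then 24.99 FPKM for U-2 OS, 26.2 then 27.6 FPKM for SK-N-SH, 106 then 117 FPKM for K562 and 7.30 then 27.4 FPKM for the stable lines. It lay within 0.14 on the log2 scale of its mock level in all 3 lines, and the low value was that of U2OS-dTF (log2 1.89 for the pooled column over it). HMGCS1, HMG-CoA synthase, was 40.0 then 65.6 FPKM for U-2 OS, 9.71 then 10.6 FPKM for SK-N-SH, 34.7 then 33.1 FPKM for K562 and 22.8 then 29.8 FPKM for the stable lines. Its U-2 OS difference was 0.71 (interval 0.60 to 0.83), short of 2-fold. Its stable difference of 0.38 was -0.93 with the derived stable mean of 12.0 FPKM, which leaves out the transfected library.

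MVK, the first mevalonate kinase, was listed at 0 then 0.501 FPKM for U-2 OS, 0.207 then 0.252 FPKM for SK-N-SH, 0.574 then 4.93 FPKM for K562 and 0.0925 then 0.472 FPKM for the stable lines. The K562 difference was 2.90 (7 against 96 reads, interval 2.02 to 4.47). In mock U-2 OS a count of 0 allows up to 0.235 FPKM at a floor of 3 reads per library, and the level with PcTF, from 6 reads, lay 1.09 above that floor on the log2 scale. The exact interval of 0 against 6 reads starts at 0.42, and both levels are below the 1 FPKM filter. PMVK, the next kinase, was 0.561 then 1.07 FPKM for U-2 OS, 1.58 then 1.28 FPKM for SK-N-SH, 0.195 then 6.53 FPKM for K562 and 4.25 then 1.33 FPKM for the stable lines. The K562 difference of 4.49 rests on 1 read in the mock library against 39, with an interval of 2.06 to 9.96. PMVK ran the other way in the stable lines (log2 -1.60).

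MVD, which decarboxylates mevalonate diphosphate, was 1.16 then 2.64 FPKM for U-2 OS, 0.725 then 0.590 FPKM for SK-N-SH, 12.2 then 24.2 FPKM for K562 and 9.54 then 2.44 FPKM for the stable lines. Its U-2 OS difference of 1.12 came from 9 and 18 reads and its interval, -0.04 to 2.53, reached 0. The K562 difference of 0.98 (interval 0.64 to 1.34) came from 91 and 285 reads and was just short of 2-fold. The median of genes in its GC decile was 1.06 in K562, and relative to that MVD lay at -0.08. The U2OS-dTF level stood far above mock U-2 OS. IDI1, the isomerase of the isoprene units, was 11.5 then 19.3 FPKM for U-2 OS, 24.3 then 22.6 FPKM for SK-N-SH, 98.4 then 47.7 FPKM for K562 and 12.0 then 11.2 FPKM for the stable lines. It was 0.74 higher in U-2 OS (interval 0.43 to 1.06) and 1.04 lower in K562 (log2 -1.04, interval -1.17 to -0.92). FDPS, which makes farnesyl diphosphate for sterols and for protein prenylation, was 20.4 then 36.6 FPKM for U-2 OS (log2 0.84, interval 0.50 to 1.17), 14.5 then 15.1 FPKM for SK-N-SH (0.05), 96.7 then 114 FPKM for K562 (0.23) and 41.0 then 35.1 FPKM for the stable lines (-0.22).

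FDFT1, which commits carbon to sterol, was the most abundant enzyme of the branch in every mock library. It was 99.2 then 169 FPKM for U-2 OS (log2 0.77, interval 0.64 to 0.89), 45.9 then 54.1 FPKM for SK-N-SH (0.24), 337 then 234 FPKM for K562 (-0.53) and 56.9 then 90.1 FPKM for the stable lines (0.66). It was thus below mock in K562, and with the derived stable mean of 50.7 FPKM it was also below U2OS-dTF (log2 -0.17). SQLE, squalene epoxidase, a rate-controlling oxygenase, was 77.8 then 115 FPKM for U-2 OS, 17.1 then 18.1 FPKM for SK-N-SH, 33.0 then 55.6 FPKM for K562 and 23.1 then 54.8 FPKM for the stable lines. It was 0.56 higher in U-2 OS and 0.75 higher in K562. Its 2-fold difference in the stable comparison (1.24) was 0.09 with the derived stable mean of 24.7 FPKM. LSS, which closes the sterol ring, was 0.934 then 1.98 FPKM for U-2 OS, 1.18 then 1.23 FPKM for SK-N-SH, 8.49 then 11.8 FPKM for K562 and 2.72 then 3.19 FPKM for the stable lines. The U-2 OS difference was 1.01 with 21 and 40 reads (interval 0.32 to 1.95).

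After lanosterol each of the 6 enzymes was past 2-fold in at least 1 of the 4 deposited comparisons, but only EBP, DHCR7 and CYP51A1 in a transfected line. CYP51A1, the lanosterol demethylase, was 11.4 then 14.7 FPKM for U-2 OS, 12.4 then 11.3 FPKM for SK-N-SH, 10.0 then 28.8 FPKM for K562 and 29.3 then 14.1 FPKM for the stable lines. It was 1.51 higher in K562 (interval 1.25 to 1.80) and lower in the stable comparison (log2 -1.05). TM7SF2, a sterol reductase, was 0.741 then 0.506 FPKM for U-2 OS, 3.34 then 3.73 FPKM for SK-N-SH, 2.01 then 3.90 FPKM for K562 and 4.37 then 2.03 FPKM for the stable lines (log2 -1.07). NSDHL, which removes C4 methyl groups, was 4.44 then 4.98 FPKM for U-2 OS, 4.25 then 5.64 FPKM for SK-N-SH, 23.9 then 23.2 FPKM for K562 and 11.2 then 5.42 FPKM for the stable lines (log2 -1.03). Both stayed under 2-fold in the transfected lines, and with the derived stable mean both were under 2-fold against U2OS-dTF as well (log2 -0.63 for TM7SF2 and -0.97 for NSDHL).

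HSD17B7, the 3-keto sterol reductase, was 3.74 then 3.55 FPKM for U-2 OS, 2.34 then 2.02 FPKM for SK-N-SH, 2.27 then 1.33 FPKM for K562 and 1.44 then 3.59 FPKM for the stable lines. It is the only member below 0 in all 3 transfected lines, and the intervals of the 3 differences, such as -1.98 to 0.43 in K562, all hold 0. EBP was 4.30 then 13.5 FPKM for U-2 OS, 2.83 then 4.10 FPKM for SK-N-SH, 66.1 then 64.2 FPKM for K562 and 10.7 then 10.1 FPKM for the stable lines. The U-2 OS difference of 1.63 (19 against 53 reads, interval 0.89 to 2.51) was the largest in that line among members that passed the filter, and K562, where EBP was already high, was at -0.04. DHCR7, the last enzyme before cholesterol on 1 of the routes, was 5.63 then 13.9 FPKM for U-2 OS, 5.13 then 5.71 FPKM for SK-N-SH, 14.8 then 58.9 FPKM for K562 and 4.88 then 8.29 FPKM for the stable lines. It was at least 2-fold higher in U-2 OS (1.29, interval 0.87 to 1.75) and K562 (1.99, interval 1.76 to 2.24) and 0.15 higher in SK-N-SH, and FASN was the only other member 2-fold higher in 2 of the 3 lines.

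None of the 4 regulators and carriers was past 2-fold in a transfected line, with medians of 0.40 for U-2 OS, -0.11 for SK-N-SH and 0.43 for K562. INSIG1, which retains the SREBP carrier in the endoplasmic reticulum and is itself a sterol-responsive gene, was 8.79 then 10.5 FPKM for U-2 OS, 5.92 then 5.49 FPKM for SK-N-SH, 58.3 then 54.8 FPKM for K562 and 27.7 then 5.17 FPKM for the stable lines. Its differences were 0.25, -0.11 and -0.09 in the transfected lines, but -2.40 in the stable comparison and -3.41 with the derived stable mean of 2.51 FPKM. SREBF2 was 8.78 then 12.8 FPKM for U-2 OS (0.54, interval 0.28 to 0.80), 1.59 then 2.97 FPKM for SK-N-SH (0.86, interval 0.37 to 1.48), 11.4 then 17.0 FPKM for K562 (0.57, interval 0.37 to 0.79) and 11.3 then 10.1 FPKM for the stable lines (-0.16). It was thus higher than mock in all 3 transfected libraries before any centring. With GC-decile centring SREBF2 stood at 0.70 for SK-N-SH, but at only 0.14 for U-2 OS and at -0.11 for K562. A rise beyond that of genes of like GC content was therefore not seen in every line. SREBF1 was 1.61 then 2.75 FPKM for U-2 OS (0.74, interval 0.13 to 1.40), 1.30 then 1.20 FPKM for SK-N-SH (-0.11), 12.1 then 15.7 FPKM for K562 (0.37) and 3.48 then 4.13 FPKM for the stable lines (0.24). STARD4 was 33.3 then 34.8 FPKM for U-2 OS, 32.8 then 19.4 FPKM for SK-N-SH, 2.38 then 3.40 FPKM for K562 and 6.86 then 22.6 FPKM for the stable lines. That is 1.70 higher in the pooled column, where U2OS-dTF is the low value. The loci given for STARD4 and SREBF1 in the tables are wider than each gene alone, and the tables do not say how reads of overlapping genes were shared.

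The enzymes that lead from citrate to palmitate were at least 2-fold higher in PcTF-transfected K562, as were 28.6% of all genes. With GC-decile centring ACLY (0.95) and ACACA (0.89) fell short of 2-fold there, and FASN (1.17) did not. ACLY, which supplies cytosolic acetyl-CoA, was 13.8 then 20.1 FPKM for U-2 OS, 32.6 then 40.0 FPKM for SK-N-SH, 38.7 then 87.2 FPKM for K562 and 39.2 then 29.98 FPKM for the stable lines. It was 1.17 higher in K562 (interval 1.06 to 1.29). ACACA, the carboxylase that makes malonyl-CoA, was 21.3 then 18.1 FPKM for U-2 OS, 26.8 then 27.8 FPKM for SK-N-SH, 29.0 then 62.6 FPKM for K562 and 6.62 then 19.9 FPKM for the stable lines. Its difference was 1.11 in K562 and -0.23 in U-2 OS (interval -0.37 to -0.10). FASN was 2.90 then 6.78 FPKM for U-2 OS, 3.29 then 3.77 FPKM for SK-N-SH, 7.79 then 36.9 FPKM for K562 and 12.6 then 5.48 FPKM for the stable lines. It was 1.20 higher in U-2 OS (interval 0.91 to 1.56), 2.23 higher in K562 (interval 2.07 to 2.42) and lower in the stable comparison (log2 -1.19).

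None of the elongation and desaturation genes, nor LPIN1, was past 2-fold in a transfected line. ELOVL6, an elongase, was 37.3 then 45.1 FPKM for U-2 OS, 30.4 then 33.3 FPKM for SK-N-SH, 42.8 then 52.2 FPKM for K562 and 12.7 then 34.9 FPKM for the stable lines. It was higher by 0.27, 0.13 and 0.29 in the transfected lines, in the same order of lines as above. SCD, the delta-9 desaturase, was 51.0 then 67.7 FPKM for U-2 OS, 38.0 then 45.8 FPKM for SK-N-SH, 211 then 160 FPKM for K562 and 73.2 then 39.9 FPKM for the stable lines. Its sign differed between the lines, at 0.41, 0.27 and -0.40 in the same order. With the derived stable mean of 26.0 FPKM it was past 2-fold lower than in U2OS-dTF (log2 -1.49). FADS1 was 122 then 112 FPKM for U-2 OS, 42.7 then 53.8 FPKM for SK-N-SH, 301 then 362 FPKM for K562 and 51.0 then 83.4 FPKM for the stable lines. FADS2, the delta-6 desaturase, was 9.52 then 16.5 FPKM for U-2 OS, 9.21 then 9.50 FPKM for SK-N-SH, 7.83 then 10.0 FPKM for K562 and 13.0 then 12.7 FPKM for the stable lines (log2 -0.04). The FADS2 difference of 0.78 in U-2 OS (interval 0.47 to 1.11) was the next largest of the branch there after FASN. LPIN1, a phosphatidate phosphatase of glycerolipid synthesis, was 8.66 then 10.4 FPKM for U-2 OS, 12.7 then 12.9 FPKM for SK-N-SH, 28.1 then 14.9 FPKM for K562 and 13.5 then 13.7 FPKM for the stable lines. It was lowest against mock in K562 (log2 -0.91, interval -1.07 to -0.75). With no FPKM filter, 11 of the 28 genes lay above 0 in all 3 transfected lines. MVK, below 1 FPKM in all libraries of both adherent lines, is among them. Of all genes tested, 6900 of 12411 lay above 0 for U-2 OS, 7400 of 11954 for SK-N-SH and 7378 of 11553 for K562. The share of all genes above 0 in all 3 lines was not computed.

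**Figure D3:**
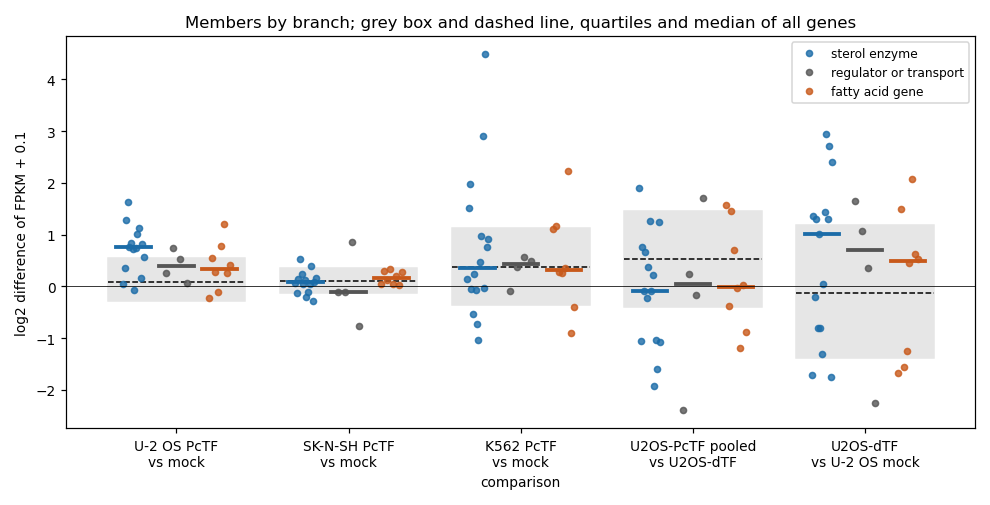
Log2 difference of FPKM plus 0.1 for each member that passed the filter (dots) in 5 comparisons, by branch, with the branch median as a coloured bar. The grey box spans the quartiles and the dashed line the median of all genes tested. In U-2 OS the sterol median of 0.75 lies above the all-gene median of 0.08, in K562 it is 0.35 beside 0.37, and in the stable comparison it is -0.08 beside 0.52.

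The sterol and fatty acid branches can be set side by side. The U-2 OS median was 0.75 for sterol enzymes and 0.34 for fatty acid genes, and the SK-N-SH medians were 0.08 and 0.16. The K562 medians were 0.35 and 0.32, and in the stable comparison -0.08 and -0.01. No test of a difference between the branches was made, since the genes of a branch share their libraries and are not replicates. Adding the 4 regulators and carriers to the sterol enzymes moved the U-2 OS median to 0.72 and the K562 median to 0.42.

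Base composition ran alongside these differences. Across all genes of U-2 OS the median difference was -0.12 for transcripts under 45% GC, 0.13 from 45 to 55% and 0.56 at 55% or more, and the 26 members had medians of 0.32, 0.26 and 0.84 in the same classes. Pearson's r of the log2 difference on GC was 0.30 over 11713 genes and 0.57 over the 26 members, as a description over genes that share libraries. In K562 it was 0.25 over 10897 genes and 0.49 over the 28 members. HMGCS1 (38.95% GC) and IDI1 (37.93% GC) lay 0.84 and 0.86 above the median of their own GC decile in U-2 OS. With every gene centred on its decile the U-2 OS medians were 0.59 for sterol enzymes and 0.33 for fatty acid genes, and 1 member, EBP, stayed past 2-fold. In K562 the sterol median became -0.15. The part of GC in the differences was not tested.

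**Figure D4:**
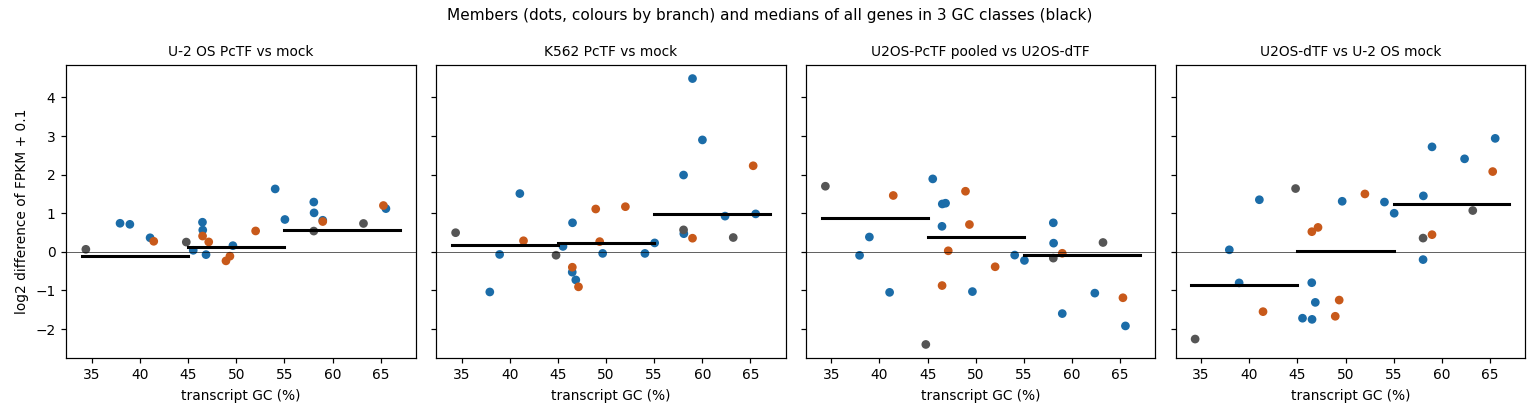
Log2 difference of FPKM plus 0.1 against GC content of the canonical transcript in percent, for the members that passed the filter (dots, colours by branch) in 4 comparisons, with the median of all genes in 3 GC classes as black lines. The black lines climb with GC in U-2 OS (-0.12 to 0.56) and in U2OS-dTF against mock U-2 OS (-0.87 to 1.23) and descend in the stable comparison (0.87 to -0.09).

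The U2OS-dTF library stood apart from mock U-2 OS even though neither holds PcTF. Across these tables, which were normalized separately, 12 of 27 members were 2-fold higher in U2OS-dTF (28.1% of all genes) and 7 were 2-fold lower (32.0%). MVD was 9.54 against 1.16 FPKM, TM7SF2 4.37 against 0.741 FPKM, FASN 12.6 against 2.90 FPKM and INSIG1 27.7 against 8.79 FPKM, all higher in U2OS-dTF. STARD4, SQLE, ACAT2 and ACACA were lower there. The sterol median of 1.00 in this comparison became -0.07 when 1 FPKM was asked of both libraries and 0.57 with GC-decile centring. The comparison of U2OS-PcTF with U2OS-dTF shares this library, so each member above is given with both values. Whether the transgene, doxycycline, the line or the library sets it apart cannot be told apart with 1 library.

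Against mock U-2 OS, the derived stable U2OS-PcTF mean was 2-fold higher for 5 of 27 members (27.3% of all genes) and 2-fold lower for 4 (7.69%). The lower ones were HMGCS1 (12.0 against 40.0 FPKM), SQLE (24.7 against 77.8 FPKM), INSIG1 (2.51 against 8.79 FPKM) and STARD4 (16.4 against 33.3 FPKM). In PcTF-transfected U-2 OS their values were 65.6, 115, 10.5 and 34.8 FPKM. HMGCS1 and SQLE thus lay above mock after transfection and below it in the stable line, while the transfection intervals of INSIG1 (-0.12 to 0.64) and STARD4 (-0.09 to 0.22) hold 0. ACLY was higher in both, at 20.1 and 34.9 FPKM against 13.8 FPKM.

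**Figure D5:**
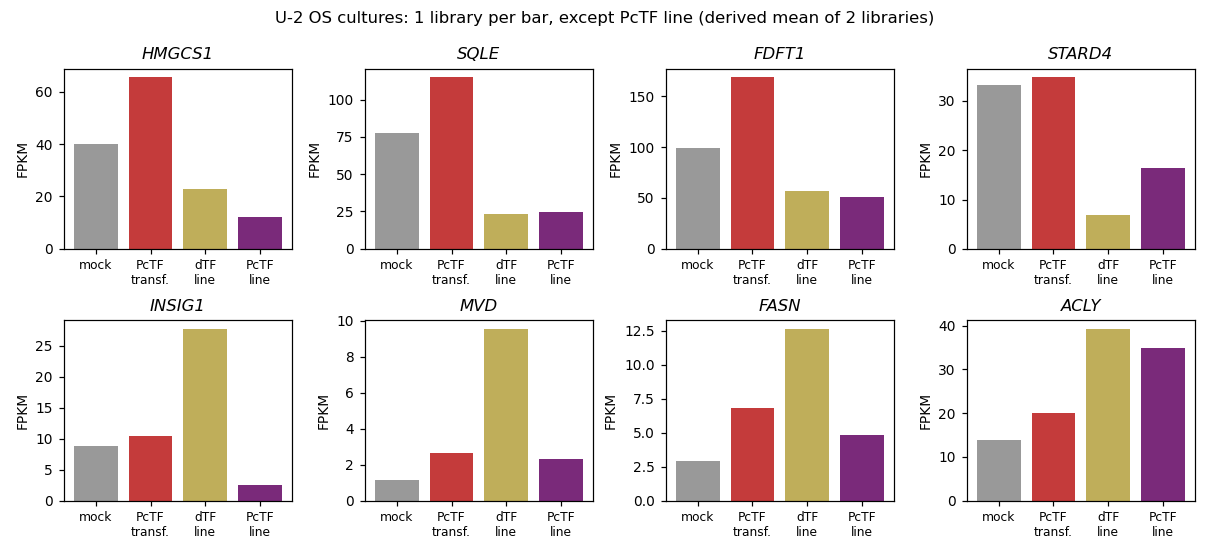
FPKM of 8 members, chosen after their values were seen, in mock U-2 OS, PcTF-transfected U-2 OS, U2OS-dTF and the derived mean of the 2 stable U2OS-PcTF libraries. Each of the first 3 bars is 1 library, so no bar has an error, and the tables were normalized separately. HMGCS1, SQLE, FDFT1, INSIG1 and STARD4 are lower than mock in the stable PcTF bar and not in the transfected bar.

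Other genes of the same pathways were read from lists set by function. Their counts stand beside shares of all genes that were 12.0% higher and 5.59% lower for U-2 OS, 5.79% and 2.69% for SK-N-SH, 28.6% and 11.7% for K562, and 36.1% and 14.5% in the stable comparison. Of 7 other sterol synthesis genes that passed in U-2 OS 1 was 2-fold higher, MSMO1, a sterol C4 methyl oxidase, at 17.8 then 38.5 FPKM, and 5 lay above 0. In SK-N-SH 0 of 8 were past 2-fold. In the stable comparison MSMO1 was 8.63 then 21.1 FPKM, 2-fold higher in the pooled column, which contains that PcTF-transfected U-2 OS library. With the derived stable mean it was under 2-fold. IDI2 was listed at 0 in U2OS-dTF and was 1.33 FPKM in the pooled column.

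Of 7 genes that control SREBP processing none was past 2-fold in either adherent line. SCAP, the sterol sensor that escorts SREBPs, was 8.43 then 19.1 FPKM for K562 and was the 1 gene of 7 past 2-fold there. In the stable comparison the protease MBTPS2 was the 1 gene of 7 past 2-fold higher, at 2.67 then 7.16 FPKM. Mitochondrial fatty acid oxidation, the opposing pathway, had 0 of 15 genes past 2-fold for U-2 OS and 0 of 17 for SK-N-SH. In K562 4 of 17 were higher and 2 lower, with CPT1A, the gate of the pathway, at 1.14 then 8.48 FPKM and CPT1B at 2.49 then 0.845 FPKM. In the stable comparison 3 of 16 were higher, CPT1B among them at 2.24 then 5.03 FPKM, and ACADS was the 1 lower gene at 2.62 then 0.380 FPKM.

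Sterol uptake and egress genes included the liver X receptors NR1H2 and NR1H3, which switch on cholesterol efflux. NR1H2 was 0.128 then 1.48 FPKM for U-2 OS (1 against 14 reads, interval 1.28 to 9.40), 1.12 then 1.96 FPKM for SK-N-SH, 2.28 then 10.4 FPKM for K562, and 0.757 then 1.95 FPKM for the stable lines. NR1H3 was 1.20 then 2.58 FPKM for U-2 OS, 2.09 then 6.67 FPKM for K562 and 0.112 then 1.99 FPKM for the stable lines, each at least 2-fold higher, and below 1 FPKM in both SK-N-SH libraries. Of the list 3 of 15 were higher for U-2 OS, 0 of 13 for SK-N-SH, 7 of 13 for K562 with 1 lower (NPC2, 216 then 54.5 FPKM), and 11 of 15 in the stable comparison, where the shares of all genes higher were 12.0%, 5.79%, 28.6% and 36.1%. In U2OS-dTF against mock U-2 OS 7 of 14 of this list were 2-fold lower (32.0% of all genes) and 2 higher (28.1%). The derived stable mean was 2-fold higher than mock U-2 OS for 5 of 15 (27.3%) and lower for 3 (7.69%). These tables were normalized separately. SCARB1, the lipoprotein receptor, was 3.31 then 7.75 FPKM for U-2 OS and 12.5 then 33.8 FPKM for K562. ABCG1, MYLIP and APOE were higher in K562 and in the stable comparison, with ABCG1 listed at 0 in mock K562 and APOE listed at 0 in U2OS-dTF. APOE was 24.7 then 141 FPKM for K562.

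In the remaining fatty acid and lipid synthesis genes 3 of 20 were 2-fold higher in U-2 OS. They were FADS3, a desaturase relative, at 1.30 then 4.44 FPKM, the mitochondrial citrate carrier SLC25A1 at 2.18 then 6.40 FPKM, and TECR, an enoyl reductase of elongation, at 4.68 then 10.7 FPKM. All 3 were also 2-fold higher in K562, where 9 of 23 were higher and 5 lower, among them SLC25A1 at 14.9 then 81.0 FPKM, FADS3 at 4.61 then 26.8 FPKM, TECR at 6.21 then 19.0 FPKM and THRSP at 5.03 then 0.276 FPKM. FADS3 was lower in the stable comparison, at 12.1 then 4.88 FPKM (log2 -1.30). PTPLB was listed at 0 in mock K562 and was 2.06 FPKM with PcTF. In SK-N-SH AGPAT2 was the 1 of 18 past 2-fold, at 0.617 then 1.75 FPKM. In the stable comparison 3 of 20 were higher, ACSL3 the farthest at 13.6 then 61.3 FPKM, and 4 were lower, AGPAT2 the farthest at 13.1 then 2.58 FPKM. AGPAT2 was higher in K562 too, at 6.67 then 23.0 FPKM, and ACSL1 was lower in K562 (15.1 then 4.42 FPKM) and in the stable comparison (14.03 then 6.90 FPKM).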

How the data were processed

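RNA-seq was made from 50-bp single-end reads of cDNA amplified from total RNA. Per the labels and the methods, the authors aligned reads to hg19 (GRCh37) with TopHat2 2.1.0 and Bowtie2 and computed FPKM per gene with Cuffdiff, and each deposited table holds 23245 genes, of which 23243 have the same name in all 4. The deposited columns of fold change, test, p and q were not used. Of 10 libraries 9 were used, and the one labelled U-2 OS dTF-transfected, which has no column in the 4 tables used, was not analysed here. Groups came from the labels, which assign to the stable-line comparison 2 stable U2OS-PcTF libraries, the PcTF-transfected U-2 OS library and 1 U2OS-dTF library, while the methods speak of replicates of both stable lines.

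FPKM of 1 or more in either group was required, 0.1 FPKM was added before the log2, and 2-fold was the call. No test was possible with 1 library per group. Depth came from whole-read steps in single-exon genes (whole within 3%, assumed fragment 200 bp with an SD of 80 bp). It ran from 4260000 to 7370000 reads, and PCR reads without molecular identifiers are not independent, so intervals and floors cover counting error only. Read numbers use the canonical GENCODE transcript, matched for all 28 genes and for 92.0% of genes at 1 FPKM or more. In the pooled column 3 times the value equalled the transfected library within 0.01% at 325 of 16049 genes and was more than 1% below it at 10, and at 0 members. The derived stable mean rests on this.

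The members, lists and marker genes were chosen with earlier results of these data known. All members are named, and those past 2-fold in at least 1 deposited comparison (19 of 28) are given in every column. Of the other lists, the farthest gene past 2-fold in each direction and genes past 2-fold the same way in 2 or more comparisons are named, except for results that are not reported here. Alternatives were pseudocounts of 1 and 0.01 FPKM, no filter, 1 FPKM in both groups, median centring, upper quartile scaling, a 1.5-fold call, the derived stable mean and the regulators added to the sterol enzymes. Centring within 10 GC deciles was added after the data were seen. The depth search and counts were tested on simulated data. Python 3.11.15, numpy 2.4.6, pandas 2.3.3, scipy 1.17.1 and matplotlib 3.10.9 were used.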

Additional observations from a re-analysis of the deposited data

Results flagged for a closer look

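Members that were past 2-fold in opposite directions in a transfected line and in the stable comparison were picked out. The difference between the effects was not tested, and the pooled stable column contains the PcTF-transfected U-2 OS library. PMVK was 4.49 higher on the log2 scale in K562, from 1 read in the mock library, and at -1.60 in U2OS-PcTF against U2OS-dTF. MVD was 1.12 higher in U-2 OS and at -1.92 in the stable comparison. CYP51A1 was 1.51 higher in K562 and at -1.05 in the stable comparison. FASN was 1.20 higher in U-2 OS and 2.23 higher in K562, and at -1.19 in the stable comparison. With GC-decile centring FASN was at 0.66 in U-2 OS, 1.17 in K562 and -0.78 in the stable comparison. MVD was then at 0.58 in U-2 OS and -1.52 in the stable comparison. Neither thus stayed past 2-fold in both directions. PMVK (3.81 in K562, -1.48 in the stable comparison) and CYP51A1 (1.33 and -1.73) did. The share of all genes with such opposite differences was not computed. For these 4 genes U2OS-dTF was also at least 2-fold above mock U-2 OS, by 2.72 for PMVK, 2.94 for MVD, 1.36 for CYP51A1 and 2.08 for FASN, across separately normalized tables. That comparison shares the U2OS-dTF library with the stable comparison, so it is no separate evidence.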

How the results depend on the processing

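No paired analysis was possible because each group has 1 library or 1 pooled column and the labels number no pairs. Leaving out a replicate was not possible for the same reason. Under the alternatives 124 values stayed near the reported one (medians within the median counting half-width, 0.19 to 0.33 on the log2 scale, and counts within 1.5 times), 17 moved and 2 reversed. The pooled column has no read counts. For the stable comparison the half-width, 0.28, was therefore that of U2OS-dTF against the PcTF-transfected U-2 OS library. Among the 124 are medians near 0 whose sign changed. The SK-N-SH sterol median of 0.08 was -0.0096 when median-centred and -0.0397 with GC-decile centring. The stable sterol median of -0.08 was 0.0700 with no filter and 0.117 with upper quartile scaling, and the stable fatty acid median of -0.01 was 0.197 with upper quartile scaling and 0.0131 with the derived mean. In U-2 OS the count of members 2-fold higher, 5, was 2 with a pseudocount of 1 FPKM, 12 with a 1.5-fold call and 1 with GC-decile centring. In SK-N-SH a 1.5-fold call gave 1 higher and 1 lower in place of 0. In K562 centring on the median gene gave medians of 0.0663 for sterol enzymes and 0.0356 for fatty acid genes, and GC-decile centring gave -0.152 (reversed) and 0.0779. The K562 count of 1 lower was 3 when median-centred, 3 with a 1.5-fold call and 2 with GC-decile centring. In the stable comparison median centring gave -0.392 and -0.312, GC-decile centring left 3 of 6 higher, and upper quartile scaling left 3 of 7 lower. In U2OS-dTF against mock U-2 OS the sterol median of 1.00 was -0.0743 (reversed) with 1 FPKM in both libraries, from fewer genes, and 0.574 with GC-decile centring, which took the fatty acid median from 0.484 to 0.0773. The cause of the other moves was not tested. Depth limits 2-fold calls that rest on under 20 reads in a library, which in the transfected lines were those of EBP and MVD in U-2 OS and of MVK and PMVK in K562.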
